A study of Mus musculus with 12 samples.

Results

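Fibroblast growth factor (FGF) signalling genes were followed through 12 RNA-seq libraries of mouse embryonic stem cells: the secreted ligands Fgf4, Fgf8, Fgf15 and Fgf17, the receptors Fgfr1, Fgfr2, Fgfr3 and Fgfr4, and the co-receptor gene Klb. These 9 genes, of 20529 listed in the count table, were chosen by name. Klb was among the genes selected on its low count in the Trim71-/- libraries of these same data, and the record does not give which measured values led to the choice of the other 8, so the values of all 9 are given as a description, with no test. All 9 were kept by the filter on low counts, as were 20486 genes in all.

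The cells were 129S6/SvEvTac embryonic stem cells carrying the reporter GFP_5xT71BS and a stably transfected FLAG-Cas9 with a blasticidin resistance gene, grown on gelatin in medium with serum and LIF. The 4 groups of 3 libraries crossed the genotype of Trim71, which encodes an RNA-binding protein that represses mRNAs in stem cells, with the overexpressed protein. They are named here Cas9 control, Cas9 Trim71-/-, Tnrc6a control and Tnrc6a Trim71-/-. Tnrc6a, also called GW182, is the scaffold through which Argonaute proteins silence microRNA targets. The labels call the unmutated groups only "Ctrl", do not give which part of Trim71 was deleted or how many clones a group holds, and describe the replicates as wells of a triplicate, so the spread between libraries may be that of wells of 1 line.

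FGF ligands bind receptor tyrosine kinases together with heparan sulfate chains on the cell surface, and the bound receptors signal through the Ras-ERK cascade. In mouse stem cells and the early embryo Fgf4 is the ligand known for driving ERK signalling, exit from the naive state and the formation of primitive endoderm. Klb encodes beta-Klotho, a membrane protein that the endocrine ligands Fgf15 and Fgf21 need in order to bind their receptors and that is best known from liver and fat.

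Several sequences locate the genes on which the values turn. First comes the DNA just upstream of Klb, the gene with the widest range of values among the 9, and of Fgf4, the most abundant ligand, from RefSeq (GRCm38.p6), 5′ to 3′ with CpG dinucleotides in capitals. The Klb stretch, chr5:65348161-65348313 on the plus strand, ends at the base before the annotated gene, and the Fgf4 stretch, chr7:144861136-144861385 on the plus strand, ends at the base before the shorter annotated transcript and lies in an intron of a longer one.
Klb upstream: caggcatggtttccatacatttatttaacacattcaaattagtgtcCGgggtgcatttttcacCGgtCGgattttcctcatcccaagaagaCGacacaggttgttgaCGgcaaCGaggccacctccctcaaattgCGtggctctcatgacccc
Fgf4 upstream: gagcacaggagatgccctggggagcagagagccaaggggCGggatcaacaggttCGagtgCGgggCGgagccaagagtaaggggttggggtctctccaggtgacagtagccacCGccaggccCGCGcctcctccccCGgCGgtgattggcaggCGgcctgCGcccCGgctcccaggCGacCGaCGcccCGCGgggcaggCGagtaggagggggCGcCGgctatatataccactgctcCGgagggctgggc
The Klb stretch of 153 bases held 7 CpG dinucleotides and the Fgf4 stretch of 250 bases held 21. Over the full 250 bases before the RefSeq start the counts were 9 for Klb and 21 for Fgf4, against a median of 6 in 32851 windows of that length. A RefSeq window was found for 5 of the 9 genes. The motif GATA, preceded by adenine or thymine and followed by adenine or guanine, was searched on both strands of these windows: the Klb window held 1, past the printed part, and the windows of Fgf4, Fgfr2, Fgfr3 and Fgfr4 held 0, where 26.5% of all windows held at least 1.

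Next come the mature microRNAs of 3 families that are known in stem and differentiating cells, and their matches in Fgf4, shown because Tnrc6a acts through such matches. In the microRNAs the capitals mark the seed, bases 2 to 8.
miR-294-3p: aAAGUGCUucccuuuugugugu
miR-20a-5p: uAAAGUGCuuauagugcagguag
let-7a-5p: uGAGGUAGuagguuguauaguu
In the Fgf4 sites the capitals mark the bases complementary to the seed.
Fgf4 site of miR-294-3p: ccctcaggaggAGCACTTtctctcgatgga
Fgf4 site of let-7a-5p: tctatccccatCTACCTCagagttcctgag
The match to miR-294-3p lies at chr7:144862993-144862999 and that to let-7a-5p at chr7:144863874-144863880 (GRCm38, plus strand), both in the annotated 3′ untranslated part of the last Fgf4 exon. The match to miR-20a-5p, at chr7:144862994-144863000, overlaps the first by all but 1 base. Fgf4 held 1 match to each of the 3 seeds in its 2302 bases, and the longest annotated 3′ untranslated part of each of the other 8 genes, 192 to 1797 bases long, held 0. Among 21022 genes with an annotated 3′ untranslated part, 14.7% held the miR-294-3p match, 11.7% that of miR-20a-5p and 9.02% that of let-7a-5p. MicroRNA levels were not measured in these libraries, and a match of letters is not a site shown to be used.

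Libraries held 20758151 to 31552915 counts, with each group's 3 libraries differing by more than sampling noise. Tnrc6a itself stood at 261 ± 9.39 RPKM (reads scaled to gene length and library size; mean ± SD, n = 3) in Tnrc6a control and 285 ± 9.87 in Tnrc6a Trim71-/-, against 10.4 ± 0.104 and 11.4 ± 0.77 in the Cas9 groups. Trim71 RNA stood at 32.8 ± 1.52 RPKM in Cas9 control, 29.5 ± 1.52 in Cas9 Trim71-/-, 28.3 ± 1.27 in Tnrc6a control and 25.7 ± 0.977 in Tnrc6a Trim71-/-, and a count over the whole gene does not check a deletion of part of it. For 9 of the 12 libraries a line of the labels names other input cells (HA-AVI-Tnrc6a for Cas9 Trim71-/-, with Ago2-/- added for Tnrc6a control and Upf1-/- for Tnrc6a Trim71-/-). The group means were 16.9 to 23.6 RPKM for Ago2 and 34.7 to 52.3 RPKM for Upf1, and Tnrc6a was low in Cas9 Trim71-/-. As for Trim71, the levels of Ago2 and Upf1 do not check a deletion of part of those genes. Groups are those of the titles. All 9 markers of embryonic stem cells were present at 1 CPM (counts scaled to library size) or more in every group.

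Per kilobase, Fgf4 was the highest of the 10 secreted ligands listed and Fgfr1 the highest of the 4 receptors in every group. The main shifts, detailed gene by gene below, were these. Klb was close to 0 in the Trim71-/- libraries and higher with Tnrc6a. Fgf4 and Fgf17 were higher in Trim71-/- libraries and lower with Tnrc6a. Fgfr1 was higher and Fgfr4 and Fgfr2 lower in Trim71-/- libraries, while Fgfr4 and Fgfr3 were higher with Tnrc6a.

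**Figure D1:**
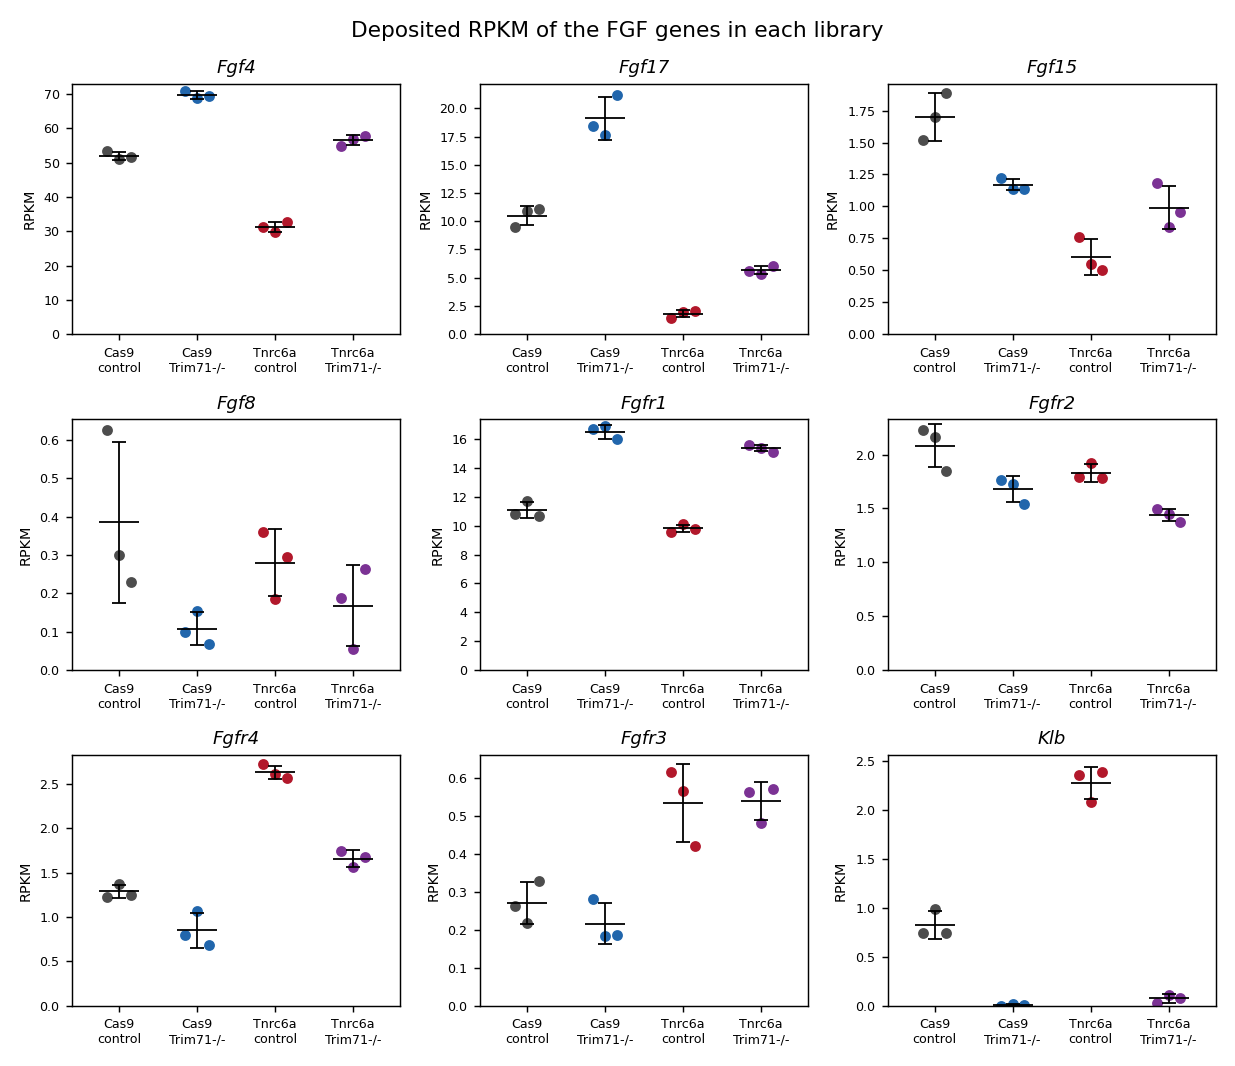
Deposited RPKM (vertical axes, linear, from 0) of each of the 9 genes in the 12 libraries; points are libraries, bars the mean and SD of 3 libraries, groups on the horizontal axis. Klb is at or below 0.113 RPKM in the 6 Trim71-/- libraries, and the 4 groups of Fgf4 and of Fgf17 do not overlap.

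Fgf4 (ENSMUSG00000050917, chr7:144847367-144865243, plus strand) encodes the main ligand of naive stem cells. It stood at 53.3, 51.0 and 51.6 RPKM in the Cas9 control libraries and at 71.0, 68.8 and 69.4 in Cas9 Trim71-/-. With Tnrc6a the values were 31.3, 29.9 and 32.7 in control and 55.0, 56.8 and 57.9 in Trim71-/- libraries. No 2 of the 4 groups overlapped, and their order from the top was Cas9 Trim71-/-, Tnrc6a Trim71-/-, Cas9 control and Tnrc6a control. The log2 fold change of Trim71-/- against control was 0.42 (SE 0.04) with Cas9 and 0.85 (SE 0.04) with Tnrc6a. Tnrc6a against Cas9 gave -0.73 (SE 0.04) in control and -0.30 (SE 0.04) in Trim71-/- cells.

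Fgf17 (ENSMUSG00000022101, chr14:70636203-70642268, minus strand), a ligand of the Fgf8 subfamily, was the second ligand by level in 3 groups, while in Tnrc6a control it lay within its spread of Fgf1 (1.91 ± 0.0627 RPKM) and Fgf18 (1.76 ± 0.368). Its relative range was the widest of the 4 ligands among the 9 genes. The Cas9 control libraries gave 9.52, 10.9 and 11.1 RPKM and the Cas9 Trim71-/- libraries 18.4, 17.6 and 21.2. Tnrc6a control gave 1.44, 1.94 and 2.06 and Tnrc6a Trim71-/- 5.59, 5.34 and 6.04. The groups were again fully separate, with both Tnrc6a groups below both Cas9 groups. The log2 fold change of Trim71-/- was 0.86 (SE 0.08) with Cas9 and 1.64 (SE 0.12) with Tnrc6a, and that of Tnrc6a was -2.53 (SE 0.11) in control, or 5.77-fold lower, and -1.75 (SE 0.09) in Trim71-/- cells.

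Fgf15 (ENSMUSG00000031073, chr7:144896531-144900953, plus strand), the endocrine ligand that signals through Klb, was low, and its difference between genotypes had opposite signs with the 2 overexpressed proteins. It gave 1.52, 1.70 and 1.89 RPKM in Cas9 control and 1.22, 1.14 and 1.14 in Cas9 Trim71-/-, a log2 fold change of -0.55 (SE 0.16). It gave 0.762, 0.552 and 0.499 RPKM in Tnrc6a control and 1.18, 0.842 and 0.953 in Tnrc6a Trim71-/-, a log2 fold change of 0.72 (SE 0.18). Tnrc6a control was thus the lowest group, 2.82-fold below Cas9 control, and the 2 Trim71-/- groups overlapped. These values rest on 160 to 374 counts a group, and the antisense genes Gm26793 and Gm39119, not analysed here, share 761 and 26 exon bases with Fgf15. Fgf4 and Fgf15 lie in 1 cluster with Fgf3, the gene bodies being 2930 bases (Fgf3 to Fgf4) and 31287 bases (Fgf4 to Fgf15) apart. Fgf3, another ligand, stood at 0.799 ± 0.0514 RPKM in Cas9 control, 0.446 ± 0.135 in Cas9 Trim71-/-, 1.23 ± 0.401 in Tnrc6a control and 0.609 ± 0.131 in Tnrc6a Trim71-/-. Its levels were thus lower in both Trim71-/- groups, unlike those of Fgf4.

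Fgf8 (ENSMUSG00000025219, chr19:45736798-45742915, minus strand), a ligand of gastrulation and later embryonic organisers, was close to the limit of detection. Its counts were 22, 8 and 8 in Cas9 control, 4, 5 and 2 in Cas9 Trim71-/-, 14, 7 and 12 in Tnrc6a control and 7, 2 and 9 in Tnrc6a Trim71-/-. Only the Cas9 groups did not overlap, with a log2 fold change of -1.83 (SE 0.58) that was -1.25 without Cas9 control replicate 1. The groups overlapped in the 3 other comparisons, with log2 values of -0.75 (SE 0.54) for Trim71-/- with Tnrc6a, -0.47 (SE 0.47) for Tnrc6a in control cells and 0.61 (SE 0.66) in Trim71-/- cells. The value for Tnrc6a in control cells was 0.11 without Cas9 control replicate 1, so its sign rests on that library.

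Summed over the 10 secreted ligands listed, RPKM was 70.8 ± 0.663 in Cas9 control, 97.9 ± 2.18 in Cas9 Trim71-/-, 40.7 ± 1.73 in Tnrc6a control and 69.8 ± 1.35 in Tnrc6a Trim71-/-. Fgf4 made up 73.4%, 71.2%, 76.9% and 81.0% of the sum in that order, and Fgf17 14.8%, 19.5%, 4.46% and 8.10%. The share of Fgf4 thus varied little beside its level, while that of Fgf17 was lowest in Tnrc6a control.

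Fgfr1 (ENSMUSG00000031565, chr8:25513654-25575718, plus strand) is the receptor best known for transmitting Fgf4 in stem cells. It gave 10.8, 11.7 and 10.7 RPKM in Cas9 control and 16.7, 16.9 and 16.0 in Cas9 Trim71-/-. With Tnrc6a it gave 9.56, 10.1 and 9.80 in control and 15.6, 15.4 and 15.1 in Trim71-/- libraries. All 6 Trim71-/- libraries lay above all 6 control libraries, with log2 fold changes of 0.58 (SE 0.04) and 0.65 (SE 0.04). Other genes of chromosome 8 were higher in the same libraries: the median log2 fold change of its 663 genes with at least 5 CPM was 0.49 with Cas9 and 0.51 with Tnrc6a, against -0.01 and 0.00 on the other chromosomes. Fgfr1 exceeded 64.4% and 73.6% of those genes, and of 13 genes within 500 kb of it, 12 rose with Cas9 and 13 with Tnrc6a (edgeR quasi-likelihood test, Benjamini-Hochberg adjusted p under 0.05), beside 17.1% and 20% of all genes. The part of the whole-chromosome shift in the value of Fgfr1 was not tested. Tnrc6a against Cas9 gave log2 values of -0.18 (SE 0.04) in control and -0.11 (SE 0.04) in Trim71-/- cells. The antisense gene Gm16159, not analysed here, shares 164 exon bases with Fgfr1.

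Fgfr4 (ENSMUSG00000005320, chr13:55152640-55168759, plus strand), the receptor that pairs with beta-Klotho for Fgf15 in liver, had the opposite pattern to Fgf17. The Cas9 control libraries gave 1.23, 1.37 and 1.25 RPKM, the Cas9 Trim71-/- libraries 0.795, 1.07 and 0.689, the Tnrc6a control libraries 2.72, 2.61 and 2.57 and the Tnrc6a Trim71-/- libraries 1.75, 1.56 and 1.68. No groups overlapped, and Tnrc6a control was the highest. The log2 fold change was -0.59 (SE 0.15) and -0.66 (SE 0.12) for Trim71-/- with Cas9 and with Tnrc6a, and 1.04 (SE 0.13) and 0.96 (SE 0.14) for Tnrc6a in control and Trim71-/- cells.

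Fgfr2 (ENSMUSG00000030849, chr7:130162451-133123350, minus strand) is the receptor that marks the primitive endoderm and trophoblast side of early embryos. Its group means ran from 2.08 ± 0.2 RPKM in Cas9 control through 1.83 ± 0.0813 in Tnrc6a control and 1.68 ± 0.118 in Cas9 Trim71-/- to 1.44 ± 0.058 in Tnrc6a Trim71-/-. It was lower in Trim71-/- libraries, by log2 values of -0.31 (SE 0.08) with Cas9 and -0.35 (SE 0.08) with Tnrc6a, with no overlap in either pair. Tnrc6a against Cas9 gave -0.23 (SE 0.08) in Trim71-/- cells, with all 3 Tnrc6a libraries lower, and -0.19 (SE 0.08) in control cells, where the groups overlapped. Fgfr2 shares 314 exon bases with Ctbp2 on the same strand, so reads there cannot be assigned to either.

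Fgfr3 (ENSMUSG00000054252, chr5:33721674-33737068, plus strand) was the lowest receptor and followed the overexpressed protein rather than the genotype. The lowest and highest libraries were 0.219 and 0.329 RPKM in Cas9 control, 0.185 and 0.281 in Cas9 Trim71-/-, 0.421 and 0.617 in Tnrc6a control and 0.483 and 0.572 in Tnrc6a Trim71-/-. The 2 genotypes overlapped with either protein, and both Tnrc6a groups lay above both Cas9 groups, by log2 values of 0.96 (SE 0.19) in control and 1.28 (SE 0.20) in Trim71-/- cells. Fgfr3 shares 998 exon bases with G630022F23Rik, which is annotated on the opposite strand and is not analysed here.

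**Figure D2:**
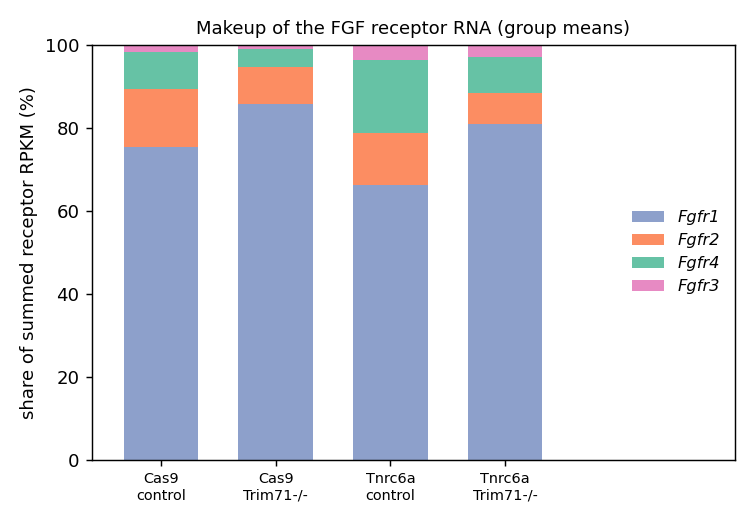
Share (%, vertical axis from 0 to 100) of each receptor in the summed deposited RPKM of the 4 FGF receptors, as the mean of 3 libraries a group (bars, groups on the horizontal axis). Fgfr1 takes 66.2% in Tnrc6a control and 85.8% in Cas9 Trim71-/-.

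The receptor sum was 14.7 ± 0.71 RPKM in Cas9 control and 14.8 ± 0.313 in Tnrc6a control, and 19.3 ± 0.794 and 19.0 ± 0.34 in the matching Trim71-/- groups. The makeup differed more than the sum did between the 2 proteins. Fgfr1 made up 75.3% ± 0.772 in Cas9 control, 85.8% ± 0.959 in Cas9 Trim71-/-, 66.2% ± 1.07 in Tnrc6a control and 80.8% ± 0.565 in Tnrc6a Trim71-/- (SD, n = 3). Fgfr4 made up 8.74%, 4.40%, 17.8% and 8.75% in the same order, so its share in Tnrc6a control was the largest and that in Cas9 Trim71-/- the smallest.

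Klb (ENSMUSG00000029195, chr5:65348314-65384007, plus strand) was the member with the largest differences. Its counts were 88, 89 and 87 in Cas9 control, 0, 2 and 1 in Cas9 Trim71-/-, 308, 264 and 326 in Tnrc6a control and 4, 14 and 9 in Tnrc6a Trim71-/-. In deposited RPKM these are 0.823 ± 0.144, 0.00943 ± 0.00911, 2.27 ± 0.162 and 0.0743 ± 0.0409. None of the 4 groups overlapped. Even at its highest Klb was thus of the order of Fgfr4, and in Cas9 Trim71-/- it was near the limit of detection. The summed counts were 92.9-fold lower in Cas9 Trim71-/- than in Cas9 control (95% counting interval 31.5 to 453) and 30.8-fold lower in Tnrc6a Trim71-/- than in Tnrc6a control (21 to 47). Tnrc6a libraries held 2.81-fold more in control cells (2.45 to 3.24) and 8.49-fold more in Trim71-/- cells (2.61 to 43.7). These intervals cover counting error only and are no test, since Klb was selected on its low count in these same Trim71-/- libraries. Reads without molecular identifiers are also not independent molecules. The fitted log2 fold change of -6.38 (SE 0.40) with Cas9 depends on the prior count and ran from -7.26 without Cas9 Trim71-/- replicate 2 to -5.72 without replicate 1. That of Tnrc6a in Trim71-/- cells, 2.94 (SE 0.70), was 3.82 and 2.28 without the same libraries and 2.48 without Tnrc6a Trim71-/- replicate 2. The SEs of Klb in comparisons with Trim71-/- libraries are too small at these counts, and the counting intervals are wider.

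**Figure D3:**
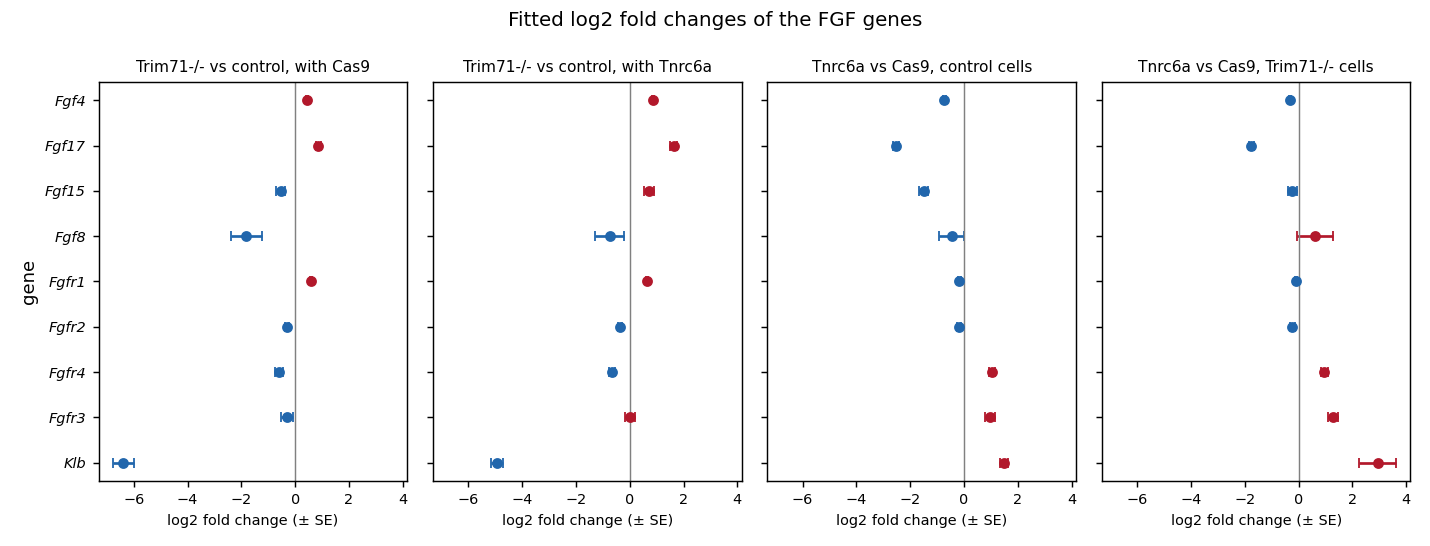
Fitted log2 fold changes (horizontal axis, edgeR, bars are ± 1 SE) of the 9 genes (vertical axis) in 4 comparisons of 3 against 3 libraries; blue points are below 0 and red points above. Klb lies at -6.38 and -4.92 for the genotype, with bars that are too short at its counts, and Fgf17 at -2.53 and -1.75 for Tnrc6a.

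For Trim71-/- against control the libraries of the 2 groups did not overlap for 8 of the 9 genes with Cas9 (3 higher, 5 lower) and for 7 with Tnrc6a (4 higher, 3 lower). For Tnrc6a against Cas9 they did not overlap for 7 in control cells (3 higher, 4 lower) and for 7 in Trim71-/- cells (3 higher, 4 lower). The share of all genes without overlap was not counted, so these counts have no background of the same measure. By another measure, 36.1%, 39.1%, 63.5% and 62.9% of all genes tested passed an adjusted p of 0.05 in edgeR's quasi-likelihood test in these 4 comparisons. Because the genes were chosen with these contrasts known, nothing is read from these counts. The 2 comparisons of the genotype share no libraries with each other, but each shares a group with both comparisons of Tnrc6a, so the signs of a gene for genotype and for Tnrc6a are not independent.

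The genes whose log2 CPM over the 12 libraries was most like that of Klb were Gata4, an endoderm transcription factor (Pearson r = 0.987), Glipr2 (0.986) and Pdgfra, a receptor that marks primitive endoderm (0.984), among 13343 candidates. Gata4 stood at 5.43 ± 0.274 RPKM in Cas9 control, 0.55 ± 0.063 in Cas9 Trim71-/-, 12.3 ± 0.728 in Tnrc6a control and 1.68 ± 0.238 in Tnrc6a Trim71-/-. Pdgfra stood at 1.08 ± 0.124, 0.235 ± 0.0266, 2.11 ± 0.0277 and 0.391 ± 0.0342 in the same order. Both thus had the group order of Klb with smaller ratios. These r values rest on 4 groups, share libraries and depth, and are descriptions.

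**Figure D4:**
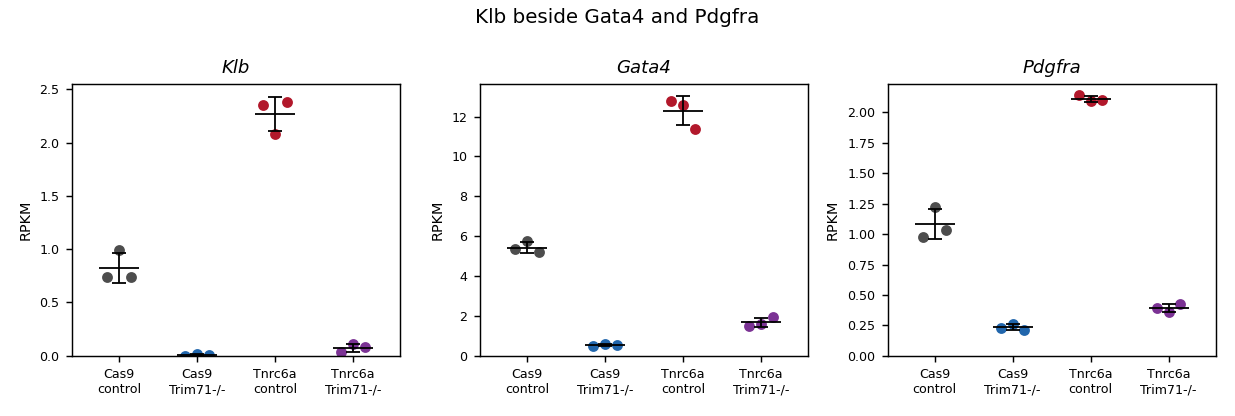
Deposited RPKM (vertical axes, linear, from 0) of Klb, Gata4 and Pdgfra in the 12 libraries; points are libraries, bars the mean and SD of 3, groups on the horizontal axis. All 3 genes are highest in Tnrc6a control and lowest in Cas9 Trim71-/-.

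Markers of some other cell types also differed between the groups. The summed level of 12 primitive endoderm markers was 867 to 900 CPM in Cas9 control, 349 to 354 in Cas9 Trim71-/-, 1640 to 1760 in Tnrc6a control and 521 to 540 in Tnrc6a Trim71-/-, none of the 12 being at 0 in any group. All 12 fell in Trim71-/- libraries with either protein (edgeR quasi-likelihood test, adjusted p under 0.05), beside 19.1% and 19% of all genes, and all 12 rose with Tnrc6a in control cells, beside 30.4%. In Trim71-/- cells 9 of the 12 rose with Tnrc6a and 1, Sox7, fell, beside 32% and 30.9% of all genes. Of 9 stem cell markers, 0 rose and 9 fell with Tnrc6a in control cells, beside 33.1% of all genes that fell, and 0 rose and 7 fell in Trim71-/- cells. In Trim71-/- libraries 6 of them rose and 2 fell with Cas9, and 7 rose and 2 fell with Tnrc6a. Their sums were 6000 to 6060, 6850 to 6930, 3490 to 3540 and 5000 to 5100 CPM in the same group order. The sum of 7 trophoblast markers was 53.5 to 55.1, 49.2 to 52.6, 251 to 286 and 146 to 149 CPM. In Tnrc6a control most of it was Krt8 (112 CPM) and Krt18 (96.2). Calls follow for the genotype with Cas9 and with Tnrc6a, then for Tnrc6a in control and Trim71-/- cells. Of trophoblast markers, 1, 1, 7 and 5 rose and 4, 6, 0 and 0 fell. Of 4 fibroblast markers, 1, 2, 3 and 4 rose and 1, 0, 0 and 0 fell. Of 4 neural markers, 2, 2, 1 and 2 rose and 2, 1, 2 and 2 fell. Of all genes, 17.1%, 20%, 30.4% and 32% rose and 19.1%, 19%, 33.1% and 30.9% fell. In bulk RNA, fewer cells of a type and less RNA per cell cannot be told apart, and the part of these markers in the values of Klb, Fgf4 and the receptors was not tested. Of 7 markers of hepatocytes and adipocytes, the cells in which Klb is best known, 1 was listed, at 0.467 CPM or less in every library.

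For the other genes, the most similar patterns were those of Vegfc (r = 0.998), Inhbb and Esrrb, a naive pluripotency factor, for Fgf4, and Igf2bp3 (0.994), Adam23 and Cobl for Fgf17. For Fgfr1 they were Cpe (0.992), Sec14l1 and Nfib, and for Fgfr4 Plpp3 (0.99), Hip1 and Cemip. For Fgf15 they were Myo10 (0.937), Nsg2 and Pde4d, for Fgfr2 Rbm4b (0.957), Fam149b and Steap1, and for Fgfr3 Tcf7 (0.969), Med4 and Nr2c1. Vegfc and Cpe lie on chromosome 8, as Fgfr1 does, and the median gene of that chromosome was higher in Trim71-/- libraries. With Cas9, Vegfc went from 12.6 ± 0.295 RPKM in control to 19.7 ± 0.688 in Trim71-/-, and Cpe from 3.73 ± 0.22 to 26.5 ± 0.201. Sec14l1 and Nfib lie on chromosomes 11 and 4. The part of the chromosome 8 shift in these likenesses was not tested. Fgf8, under 1 CPM, was left out. Among the 9 genes themselves the highest r was 0.925, between Fgf4 and Fgf17, and the lowest was -0.973, between Klb and Fgfr1.

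The rest of the FGF pathway was read from a list of 85 genes, of which 73 were listed and tested, and 12 are not analysed here. For Trim71-/- against control, 10 of the 73 rose and 32 fell with Cas9 (all genes: 17.1% up, 19.1% down), and 17 rose and 23 fell with Tnrc6a (all genes: 20% up, 19% down). For Tnrc6a against Cas9, 29 rose and 28 fell in control cells (all genes: 30.4% up, 33.1% down) and 29 rose and 26 fell in Trim71-/- cells (all genes: 32% up, 30.9% down). The median log2 fold change of the 73 was -0.11, -0.06, 0.05 and 0.06 in these 4 comparisons. The shares of all genes given here are also the background of the counts by class below. All adjusted p-values below are from edgeR's quasi-likelihood test with Benjamini-Hochberg adjustment over all genes tested.

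Among the other secreted ligands, 6 of 14 were listed. Fgf10, a ligand of mesenchyme, fell in Trim71-/- libraries with Cas9 (log2 -1.19, SE 0.14, adjusted p = 5.16e-09) and with Tnrc6a (-1.99, SE 0.17, adjusted p = 5.82e-13), from 1.74 ± 0.24 to 0.754 ± 0.108 RPKM and from 1.16 ± 0.0695 to 0.29 ± 0.0679. Fgf1 rose with Tnrc6a in control cells, from 0.573 ± 0.0516 to 1.91 ± 0.0627 RPKM (log2 1.73, SE 0.12, adjusted p = 1.92e-16), and in Trim71-/- libraries with Cas9 (1.24, SE 0.13, adjusted p = 7.48e-11). With Tnrc6a the log2 fold change of Fgf1 between genotypes was 0.28 (SE 0.10, adjusted p = 0.0183), which missed the threshold with DESeq2 (adjusted p = 0.0628) and without any of Tnrc6a control replicate 1, 2 or 3 or Tnrc6a Trim71-/- replicate 2 (0.0527 to 0.211). Fgf3, the neighbour of Fgf4, fell with Cas9 (-0.86, SE 0.27, adjusted p = 0.00942, and 0.0902 without Cas9 Trim71-/- replicate 1) and with Tnrc6a (by 2.0-fold, adjusted p = 0.000477). Fgf18, of the Fgf8 subfamily, rose in Trim71-/- libraries with Cas9 (0.81, SE 0.17, adjusted p = 0.000117) and fell with Tnrc6a in Trim71-/- cells (-0.84, SE 0.16, adjusted p = 2.22e-05).

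Of 7 other co-receptors and receptor partners listed, 6 rose with Tnrc6a in control cells and 0 fell (all genes: 30.4% up, 33.1% down). Fgfbp3, a secreted carrier of FGFs, rose by 2.56 (SE 0.26, adjusted p = 1.18e-11), and Flrt1, a membrane partner of the receptors, by 2.15 (SE 0.18, adjusted p = 4.16e-14), from 0.223 ± 0.0461 to 0.972 ± 0.151 RPKM. In Trim71-/- cells 5 of the 7 rose with Tnrc6a. With the genotype, 1 of the 7 fell with Cas9: Flrt3 (-0.57, SE 0.12, adjusted p = 0.000179), which also fell with Tnrc6a (-1.18, SE 0.11, adjusted p = 6.85e-12).

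Heparan sulfate synthesis and carrier genes, whose products hold ligand and receptor together, numbered 18. In Trim71-/- libraries with Cas9, 2 rose and 8 fell, or 4 and 8 with scaling factors made without chromosome 8 genes, and with Tnrc6a 8 rose and 5 fell. With Tnrc6a in control cells 8 rose and 8 fell (all genes: 30.4% up, 33.1% down), and in Trim71-/- cells 9 rose and 7 fell (all genes: 32% up, 30.9% down). With Tnrc6a in control cells, Sulf1, which removes 6-O-sulfates from the chains, fell by 2.00 on the log2 scale (SE 0.07, adjusted p = 1.65e-26). In the same comparison the core protein gene Sdc4 rose from 31.0 ± 0.829 to 71.7 ± 3.51 RPKM (1.21, SE 0.04, adjusted p = 1.73e-26). The sulfotransferase gene Hs3st1 rose there by 1.76 (SE 0.14, adjusted p = 8.11e-15). In Trim71-/- libraries Hs3st1 fell with Cas9 (-2.22, SE 0.22, adjusted p = 1.68e-11) and with Tnrc6a (-2.89, SE 0.15, adjusted p = 1.08e-19). Ndst1, an early enzyme of chain sulfation, rose by 0.70 (SE 0.06) in both, with adjusted p = 4.43e-13 and 6.66e-14.

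Of 20 adaptors and Ras-ERK cascade genes, 4 rose and 9 fell in Trim71-/- libraries with Cas9, and 2 rose and 9 fell with Tnrc6a, most by small amounts. The docking protein gene Gab1 rose by 0.77 (SE 0.04, adjusted p = 3e-21) and 0.64 (SE 0.04, adjusted p = 1.37e-18), and the scaffold gene Ksr1 fell by 0.72 (SE 0.08, adjusted p = 1.32e-09) and 0.50 (SE 0.07, adjusted p = 3.52e-07). For Tnrc6a against Cas9, 7 of the 20 rose and 7 fell in control cells, and 8 rose and 9 fell in Trim71-/- cells. Sos2, a Ras exchange factor, rose by 1.35 (SE 0.09, adjusted p = 2.22e-17) in control and 1.25 (SE 0.09, adjusted p = 2.92e-16) in Trim71-/- cells. Map2k2 fell by 0.50 (SE 0.04, adjusted p = 1.45e-13) and 0.61 (SE 0.04, adjusted p = 6.83e-16) in the same order. Nras fell by 0.48 (SE 0.04, adjusted p = 2.74e-14) and 0.46 (SE 0.04, adjusted p = 9.21e-14).

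The feedback inhibitors, which ERK signalling induces and which in turn dampen it, numbered 11. In Trim71-/- libraries with Cas9, 0 rose and 7 fell (all genes: 17.1% up, 19.1% down). ERK signalling itself was not measured. In Trim71-/- libraries with Tnrc6a, 2 rose and 5 fell (all genes: 20% up, 19% down). Spry2 fell in both, by 0.57 (SE 0.04, adjusted p = 2.56e-14) and 0.48 (SE 0.05, adjusted p = 9.4e-12), as did the phosphatase gene Dusp4, by 0.85 (SE 0.09, adjusted p = 3.16e-10) and 0.48 (SE 0.07, adjusted p = 1.34e-06). With Tnrc6a in control cells 2 of the 11 rose and 6 fell. Dusp6, the phosphatase that acts on ERK, fell from 41.4 ± 1.23 to 20.1 ± 0.585 RPKM (-1.04, SE 0.04, adjusted p = 1.13e-23), and Spry4 from 47.5 ± 1.78 to 22.5 ± 0.331 (-1.07, SE 0.04, adjusted p = 1.22e-25). Dusp4 and Dusp5 rose in the same comparison, by 0.90 (SE 0.08, adjusted p = 2.38e-13) and 0.96 (SE 0.10, adjusted p = 7.89e-12), so members of the list moved both ways. For Tnrc6a against Cas9 in Trim71-/- cells, 3 of the 11 rose and 4 fell (all genes: 32% up, 30.9% down).

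Of 9 transcription factors downstream of FGF, 3 rose and 5 fell with Tnrc6a in control cells (all genes: 30.4% up, 33.1% down). The ETS factor gene Etv4 fell from 79.2 ± 2.14 to 38.6 ± 0.986 RPKM (-1.04, SE 0.04, adjusted p = 1.07e-24), and Egr1, an immediate early gene, fell from 16.5 ± 1.93 to 4.41 ± 0.402 (-1.90, SE 0.08, adjusted p = 2.71e-20). The AP-1 gene Fosl1 rose from 0.978 ± 0.254 to 5.94 ± 0.252 RPKM (2.63, SE 0.14, adjusted p = 2.91e-20). In Trim71-/- libraries with Cas9, 1 rose and 5 fell, Egr1 by 2.03 (SE 0.08, adjusted p = 5.3e-20) to 4.03 ± 0.137 RPKM. With Tnrc6a, 2 rose and 1 fell, and Egr1 had a log2 fold change of -0.18 (SE 0.09, adjusted p = 0.0915). Etv4 had -0.01 (SE 0.04, adjusted p = 0.934) and 0.01 (SE 0.04, adjusted p = 0.84) for the genotype with the 2 proteins. For Tnrc6a against Cas9 in Trim71-/- cells, 3 of the 9 rose and 3 fell (all genes: 32% up, 30.9% down).

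**Figure D5:**
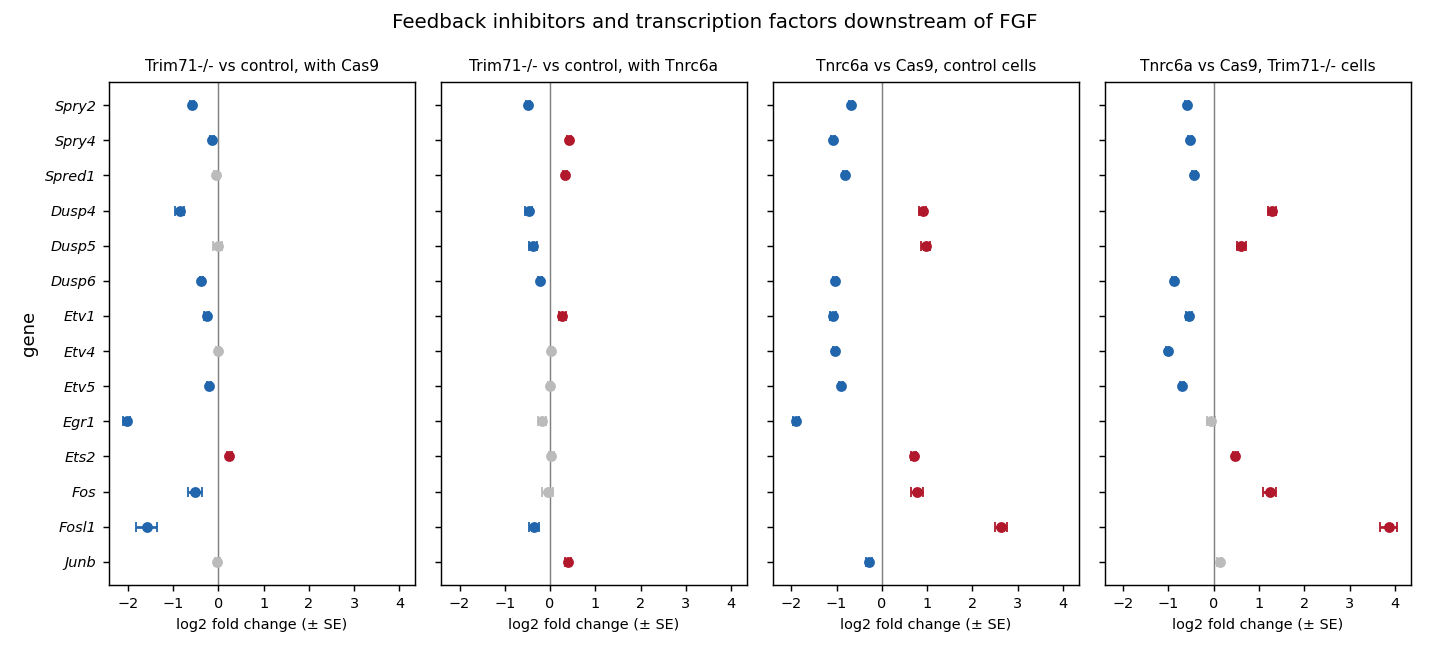
Fitted log2 fold changes (horizontal axis, bars are ± 1 SE) of 14 feedback inhibitors and transcription factors (vertical axis) in 4 comparisons of 3 against 3 libraries; blue points fell and red points rose at an adjusted p under 0.05, grey points did not pass. Etv4 lies at -1.04 for Tnrc6a in control cells and at -0.01 for the genotype with Cas9.

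The genotype effect differed between the 2 proteins for 20 of the 73 pathway genes, 16 with a more positive value with Tnrc6a and 4 with a more negative one (all genes: 6.93% called, 4.68% and 2.25% by direction), and for 13 of the 73 without Tnrc6a control replicate 1. The split was 14 and 6 with relative log expression scaling and 12 and 6 with DESeq2. Of the 11 feedback inhibitors 5 were among the 16, or 3 with relative log expression scaling, and of the 9 transcription factors 5. Spry4 differed by 0.56 (SE 0.06, adjusted p = 1.65e-09): its log2 fold change was -0.14 (SE 0.04, adjusted p = 0.00417) with Cas9 and 0.42 (SE 0.04, adjusted p = 1.51e-11) with Tnrc6a. Among the 9 genes first described, the same difference was 1.26 (SE 0.24) for Fgf15, 0.78 (SE 0.15) for Fgf17 and 0.43 (SE 0.06) for Fgf4, and between -0.08 and 0.32 for the 4 receptors. For Fgf8, close to the limit of detection, it was 1.08 (SE 0.81). For Klb it was 1.46 (SE 0.76, too small at its counts), or 0.80 without Cas9 Trim71-/- replicate 1 and 2.34 without replicate 2.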

How the data were processed

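RNA of 12 libraries was sequenced with a stranded total RNA kit, per the labels' protocols. Per the submitters' processing notes, bcl2fastq 2.20 and STAR 2.7.3a were used with GRCm38 (mm10). Of the counting tool, the strand setting and the annotation nothing is stated in these sources. The authors deposited raw counts per gene, RPKM (reads scaled to gene length and library size) and another column, the gene length. The name of that column holds the word quasr, with no further statement of how reads were counted. Levels are the deposited RPKM, whose library sizes are 0.935 to 1.08 times the total counts. Levels between genes were compared only as RPKM.

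Counts were fitted with edgeR 4.0.16 (R 4.3.3, limma 3.58.1): filterByExpr, TMM factors, robust glmQLFit with 1 mean per group over all 12 libraries, glmQLFTest, two-sided, Benjamini-Hochberg adjustment over 20486 genes, threshold 0.05. SEs are the absolute log2 fold change divided by the square root of the test's F statistic. They are too small where a group is near 0 counts, as for Klb in Trim71-/- libraries. The procedure was also run on simulated counts in which 200 genes were changed in 1 group and all others were equal. Far more genes differ in these data, so that run does not check the scaling or the error rates here. P-values measure the spread between these libraries, which may be technical.

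The 9 genes, the pathway and marker lists and the tests were chosen with earlier results of these data known. Besides the 9, the text names, per comparison and pathway class, up to 2 genes of each direction with the lowest adjusted p among those called whose mean reached 1 CPM; the genes of the labels; the 3 genes with the highest Pearson r of log2 CPM (prior count 2) to each of the 9; and, chosen after their values were seen, further values of those same genes in other comparisons. Gene positions and 3′ untranslated parts are from GENCODE M21, promoters and microRNAs from RefSeq. Same-numbered replicates do not pair: their deviations from group means correlated at -0.116 to 0.145. Alternatives were other scalings, filters, DESeq2 1.42.0, a replicate block, fewer groups in the fit and leaving out each library.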

Additional observations from a re-analysis of the deposited data

Results flagged for a closer look

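The interaction term of edgeR's quasi-likelihood fit, the genotype effect with Tnrc6a minus that with Cas9 on the log2 scale, passed an adjusted p of 0.05 for 16 of the FGF pathway genes that the rule for named genes picks in any comparison, and it was not counted here for the markers or for the genes of similar pattern. Among the ligands other than the 9 genes first described and receptor partners it was -0.96 for Fgf1, -0.80 for Fgf10 and -0.61 for Flrt3. The calls of Fgf10 and Flrt3 were lost without single libraries: for Fgf10 without Tnrc6a control replicate 1, Tnrc6a Trim71-/- replicate 3, replicate 1 or 3 of Cas9 control, or replicate 1 of Cas9 Trim71-/- (adjusted p = 0.0519 to 0.132), and for Flrt3 without replicate 3 of Cas9 control, 2 of Cas9 Trim71-/- or 3 of Tnrc6a Trim71-/- (0.0575 to 0.0804).

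Heparan sulfate genes gave 0.20 for Hs6st1, 0.46 for Sulf2, 0.49 for Gpc4 and 0.46 for Sdc4. The kinase gene Mapk3 gave -0.32. Feedback inhibitors gave 0.56 for Spry4, 0.39 for Spred1 and 0.38 for Dusp4 (adjusted p = 0.0439). Transcription factors gave 0.53 for Etv1, 0.21 for Etv5, 1.84 for Egr1, 1.23 for Fosl1 and 0.42 for Junb. The call of Dusp4 was lost under 12 of 19 alternatives, among them relative log expression scaling, DESeq2, the replicate block and 9 of the 12 single libraries left out (adjusted p = 0.0512 to 0.158). That of Etv5 was lost with DESeq2 and without Cas9 control replicate 2, Tnrc6a control replicate 1 or 2, or Tnrc6a Trim71-/- replicate 1 or 3 (0.0628 to 0.192), and that of Hs6st1 without Tnrc6a control replicate 1 or 2 or Tnrc6a Trim71-/- replicate 3 (0.0593 to 0.182). Egr1 stood at 16.5 RPKM in Cas9 control and at 3.88 to 4.41 RPKM in the 3 other groups.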

How the results depend on the processing

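Called pathway genes stayed within 1.5 times of 42, 40, 57, 55 and 20 (genotype with Cas9 and with Tnrc6a, Tnrc6a in control and in Trim71-/- cells, and their interaction) under every alternative run, except that the interaction count was 13 without Tnrc6a control replicate 1. Leaving out 1 library gave 36 to 42, 35 to 40, 55 to 57, 52 to 58 and 13 to 22. DESeq2 gave 41, 38, 57, 54 and 18. With the replicate number as a block the counts were 41, 40, 58, 55 and 20. Same-numbered libraries were not each other's best match throughout. No called pathway value changed sign. Of the 9 genes' fold changes under alternatives, 14 were classed as moved, not all by more than their SE, and 652 as the same. Among the 14 the interaction of Fgfr4, -0.08 (SE 0.19), was 0.11 without Cas9 Trim71-/- replicate 2, a change of sign. The 36 group levels of the 9 genes held with RPKM recomputed from counts. Fgfr3 for the genotype with Tnrc6a, at 0.01, ran from -0.01 to 0.03 over the scalings. Of named pathway genes, 56 values under alternatives lost their call (of Flrt1, Ext2, Fgf11, Fosl1, Fgf18, Fgf1, Fgf3, Fgf10, Flrt3, Dusp4, Etv5 or Hs6st1) and 1424 kept it; the replicate block was among them for Dusp4's interaction alone. Ranked by Spearman's rho in place of Pearson's r, the 3 most similar genes shared 0 with those given for Klb, Fgf4, Fgf17, Fgfr1, Fgfr2 and Fgfr4 and 1 for Fgf15 and Fgfr3, so those names depend on the measure of likeness. Depth limits Fgf8, with 11 to 38 counts a group, and Klb in Cas9 Trim71-/-, with 3.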
